A study of Mus musculus with 10 samples.

Results

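Stacked clusters are iCLIP clusters of the RNA-binding protein RBFOX2 that overlapped another cluster on the same chromosome and strand by at least 1 base. Clusters in the top 1% of coverage, at or above 18843.6, were set aside, although they still counted as overlap partners. By this rule 2676 of the 35639 clusters were stacked, a share of 7.51% (95% Wilson interval 7.24% to 7.79%, which covers counting error only). They merged into 948 regions and carried 736 of the 7740 gene IDs that had any cluster. Of the 2791 clusters with a partner, 115 were set aside for their coverage. Just inside the limit lay clusters of Fryl (coverage 18616), Glb1 (18628) and Herc2 (18680), and just outside it those of Blvra (18912), Deaf1 (19031) and Prdm14 (19182).

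RBFOX2 belongs to a family of splicing regulators that bind the RNA letters GCAUG, most often as UGCAUG, in introns and exons near alternative exons. In iCLIP, ultraviolet light links a protein to the RNA it touches in living cells, the protein is immunoprecipitated, and the trimmed RNA is sequenced, so that reads pile up into clusters where the protein sat. A cluster is one such interval as the authors listed it, with the gene ID it was assigned to.

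The study used V6.5 mouse embryonic stem (ES) cells. For iCLIP, lentivirus (pSLIK Hygro vector) carried human RBFOX2 under doxycycline control, either with a FLAG-HA tag (FHFOX2) or without one (UntagFOX2). Cells had 6 days of hygromycin at 150 µg/ml and 24 h of doxycycline at 1 µg/ml before crosslinking at 150 mJ/cm2. There was 1 library of each kind, and the clusters are those of FHFOX2 that exceeded UntagFOX2, so binding was that of an induced human protein and had no replicate. Both libraries had 16 PCR cycles and UntagFOX2 had 7 more. For expression, the same ES cell line carried lentiviral hairpins against Rbfox2 (shFox2-1 and shFox2-2) or against luciferase (shLuc) or GFP (shGFP), with 2 RNA-seq libraries per hairpin. Puromycin at 1 µg/ml was given for 3 days and withdrawn for 24 h before harvest, and the deposited table gives 1 pooled FPKM value per hairpin with an interval. FPKM counts sequenced fragments relative to transcript length and to the mapped total.

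Sequencing depth was unknown for both assays. Rbfox2, the targeted gene, stood at 8.56 and 7.21 FPKM in shFox2-1 and shFox2-2, against 24.7 and 23.3 FPKM in shLuc and shGFP. The ES cell markers were present in every hairpin, with Pou5f1 between 268 and 336 FPKM, and markers of other cell types were not all absent. The neuronal marker Tubb3 stood between 24.7 and 38.3 FPKM and the trophoblast marker Tfap2c between 8.24 and 15.1, while the fibroblast markers reached at most 2.17 FPKM and the primitive endoderm markers at most 1.66. The other trophoblast markers were lower, with Krt7 between 1.22 and 4.04 FPKM, Cdx2 at most 0.571 and Elf5 at most 0.154. Among the neuronal markers, Map2 stood between 2.34 and 2.88 FPKM and Snap25 at most 0.516. Syt1 (neuron) and Lum (fibroblast) were listed at 0. The median log2(FPKM + 1) of expressed genes lay 0.09 above the mean of the 4 hairpins in shFox2-1 and 0.10 below it in shFox2-2.

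Among the stacked clusters were 5 that carried the ID of a microRNA gene, out of 19 microRNA genes with any cluster. MicroRNAs are short RNAs cut from a hairpin, and bases 2 to 8 of the mature form, the seed, pair with target mRNAs. These clusters are shown because the RNA under them is short enough to print, and were chosen after their values had been seen. The mature sequences follow, 5′ to 3′, with the seed in capitals (RefSeq, GRCm38.p6):
miR-126a-3p: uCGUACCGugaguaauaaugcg
miR-19a-3p: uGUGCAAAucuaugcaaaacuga
miR-200c-5p: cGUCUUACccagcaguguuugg
miR-200c-3p: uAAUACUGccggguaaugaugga
miR-324-5p: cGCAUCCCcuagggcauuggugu
miR-324-3p: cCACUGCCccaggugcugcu
miR-744-5p: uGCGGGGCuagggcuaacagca
miR-744-3p: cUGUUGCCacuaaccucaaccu

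No 2 of these seeds were alike. The hairpins from which they are cut, in lower case and also from RefSeq, are printed whole, since the clusters were wider than a mature microRNA:
Mir126a hairpin: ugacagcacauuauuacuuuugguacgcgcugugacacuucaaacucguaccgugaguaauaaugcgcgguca
Mir19a hairpin: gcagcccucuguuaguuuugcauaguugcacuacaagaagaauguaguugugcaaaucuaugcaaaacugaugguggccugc
Mir200c hairpin: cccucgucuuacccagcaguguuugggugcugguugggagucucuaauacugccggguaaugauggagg
Mir324 hairpin: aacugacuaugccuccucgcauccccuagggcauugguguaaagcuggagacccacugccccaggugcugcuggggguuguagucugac
Mir744 hairpin: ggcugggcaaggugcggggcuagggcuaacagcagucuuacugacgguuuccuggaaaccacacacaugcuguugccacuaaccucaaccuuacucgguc

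Each microRNA cluster shared its place with a cluster listed for another gene ID. The Mir126a cluster (mm9 chr2:26446891-26446948, plus strand, 58 bases, coverage 181, fold over the untagged library 1.62) lay wholly inside one of Egfl7, a secreted vascular protein gene that holds this microRNA (74 bases, coverage 237, fold 2.12). The Mir19a cluster (chr14:115443236-115443301, plus strand, 66 bases, coverage 262, fold 2.26) shared 65 bases with one of Mir17hg, the host transcript of the miR-17-92 group (70 bases, coverage 267, fold 2.38). The Mir200c cluster (chr6:124668336-124668389, minus strand, 54 bases, coverage 175, fold 1.56) lay inside one of Gm15884 (61 bases, coverage 181, fold 1.62). These 3 had low folds, which means that the untagged library also had coverage there.

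The remaining 2 had a fold listed as infinite. The Mir324 cluster (chr11:69825563-69825624, plus strand, 62 bases, coverage 176) held one of Dvl2, a Wnt pathway adaptor (56 bases, coverage 164). The Mir744 cluster (chr11:65548293-65548347, minus strand, 55 bases, coverage 250) held one of Map2k4, a stress-activated kinase (53 bases, coverage 250). The cluster of the microRNA was thus 54 to 66 bases wide in all 5, against hairpins of 69 to 100 bases. The letters GCAUG were searched on the RNA strand alone and occurred in 0 of these 5 hairpins, in 2 of the 14 hairpins of microRNA genes with unstacked clusters and in 76 of all 1005 mouse hairpins in the table (7.56%). A missing match says only that these letters are not in that stretch.

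Most regions were small. Of the 948, 765 held 2 stacked clusters, 49 held 3 and 17 held 4. A further 47 held a single one, which overlapped a cluster that had been set aside for its coverage, and 83 regions touched such a cluster. The tallest stack had 66 clusters. The median width was 306.5 bases, between 39 and 2078, and the regions covered 360063 bases together.

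**Figure D1:**
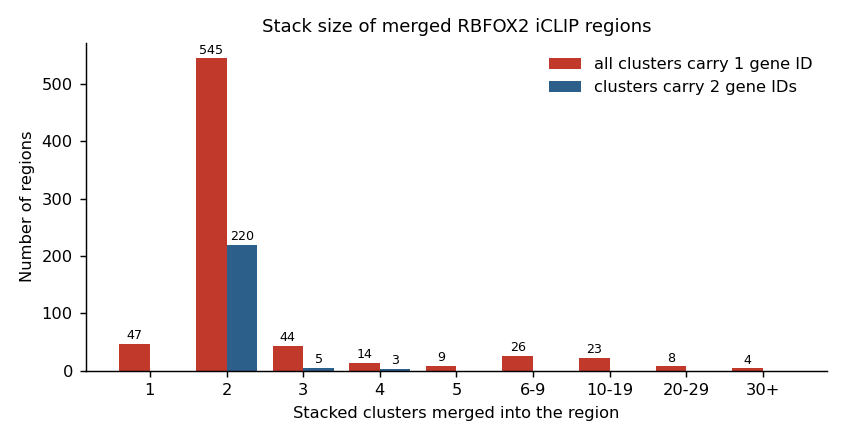
Number of merged regions (vertical axis) by the number of stacked clusters merged into the region (horizontal axis), with regions whose clusters all carry 1 gene ID in red and regions with 2 gene IDs in blue. Regions of 2 clusters dominate in both colours, with 545 in red and 220 in blue, and no region with 2 gene IDs holds more than 4 clusters.

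The stacks had 2 forms of overlap. In 720 regions every cluster carried the same gene ID, and in 228 regions (24.1%, with 467 clusters) the clusters carried 2 gene IDs. Clusters of the same gene met end to end with a short overlap: of 1497 neighbouring pairs, 1323 overlapped by exactly 24 bases, a share of 88.4% (Wilson interval 86.7% to 89.9%). None overlapped by more, and the other 174 shared 1 to 23 bases, with a median of 7. Pairs with 2 gene IDs instead lay on top of each other: in 222 of 235 (94.5%) the shorter interval was nested in the longer, and the median overlap was 89 bases, between 4 and 757.

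The files also give the summit of each cluster, the stretch of highest coverage. No summit in the whole file lay closer than 12 bases to either end of its cluster. The summit lay at exactly that distance in 283 stacked clusters (10.6%), against 534 clusters with no partner (1.63%). Overlap across strands was rare, with 8 pairs in the file.

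**Figure D2:**
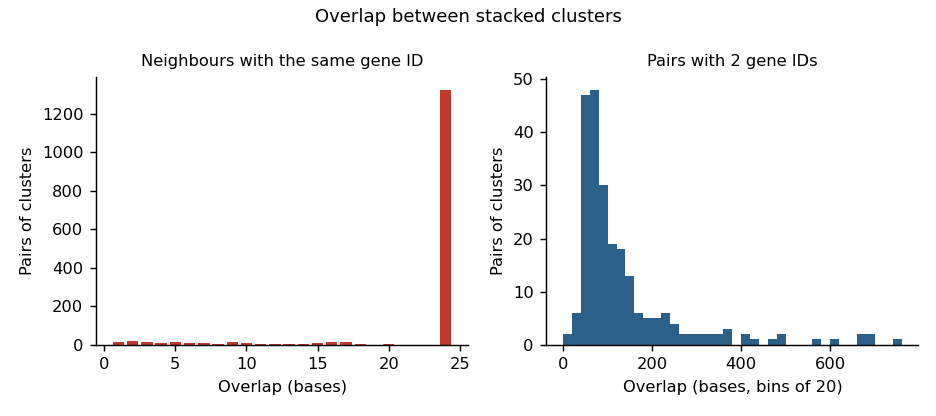
Number of overlapping pairs of clusters (vertical axis) by length of the overlap in bases (horizontal axis), for neighbouring clusters with the same gene ID (left, red) and for pairs with 2 gene IDs (right, blue, bins of 20 bases). The left panel has its tallest column, 1323 pairs, at 24 bases, with 174 pairs spread over shorter overlaps and none over longer ones, while the right panel spreads to 757 bases around a median of 89.

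Stacks of the same gene were grouped by height, with a boundary at 6 that was chosen after the values had been seen. The 61 regions of 6 or more clusters held 839 clusters (31.4% of all stacked clusters) from 40 gene IDs. Their median width was 590 bases and their median stack was 12 clusters, with a median of 3 and at most 4 clusters over any base. The 67 regions of 3 to 5 clusters had a median width of 423 bases, and the 545 pairs one of 363 bases.

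Taller stacks were made of narrower and more covered clusters. Median cluster width was 65 bases in regions of 6 or more, 121 in regions of 3 to 5 and 158 in pairs. Median coverage was 4710, 1957 and 910 in the same order. The median of the finite folds was alike in the 3 classes (5.90, 5.98 and 5.51), but the share of clusters with an infinite fold was 1.79%, 19.3% and 31.9%. Coverage differed by a median factor of 1.44 between overlapping neighbours in the tallest class and of 1.85 over all same-gene neighbours. In that class 725 of 778 neighbouring pairs (93.2%) overlapped by 24 bases.

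The tallest stack lay in Rbpj, which codes for the DNA-binding partner of Notch in the nucleus. Its 66 clusters filled chr5:53973483-53975560 on the plus strand, 2078 bases, which also made it the widest region of all. Coverage was between 1206 and 14541 with a median of 2586, and fold between 2.18 and 35.96. The profile was uneven in coverage per cluster, which was not divided by width. In it 21 clusters reached at least 50% of the highest, and several single clusters rose out of a low floor. The highest cluster stood 1901 bases from the 5′ end, in a dense group near the 3′ end. A second Rbpj region followed with 2 clusters (chr5:53975710-53975770 at coverage 970 and chr5:53975747-53975895 at 3232). Together they took 68 of the 78 Rbpj clusters and lay at a median 27.2% of the way along the locus of 101.667 kb in the expression table. Whether any region lay in an exon, an intron or a UTR was not assigned here.

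Pask, which codes for a PAS domain protein kinase, had 2 of the 10 tallest stacks. The first held 40 clusters over chr1:95215275-95216548 on the minus strand, with coverage from 905 through a median of 4548.5 to 17683. In it 5 clusters reached 50% of the peak, which stood 839.5 bases from the 5′ end. The second held 23 clusters over chr1:95213911-95214596 with a peak of 15922, and it touched a cluster above the coverage limit. In all, 74 of the 76 Pask clusters were stacked, in 5 regions within 2750 bases.

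Dgcr8, the partner of Drosha in cutting microRNA hairpins from primary transcripts, showed the same crowding. Its largest stack held 30 clusters over chr16:18286485-18287429 on the minus strand, with coverage from 1735 through 6138 to 12770 and fold from 3.13 to 89.04. Of its 85 clusters 79 were stacked, in 5 regions within 3372 bases. These lay at a median 7.39% of the 35.286 kb locus, near its 5′ end. One Dgcr8 region was a plain pair, chr16:18288548-18288633 (coverage 2803, fold 3.33) and chr16:18288610-18288693 (coverage 3335, fold 4.43), joined by 24 bases.

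The other tall stacks lay in genes of varied roles. Marc2, which codes for a mitochondrial reductase, had 33 clusters over chr1:186637996-186639690 (minus strand, 1695 bases), with coverage from 659 to 9848, and these were all of its clusters. Camk1d, a calcium- and calmodulin-dependent kinase, had 28 over chr2:5421818-5422899 (minus strand), with fold from 5.76 to 558.75. Map2k1, the kinase MEK1 of the Ras and ERK pathway, had 24 over chr9:64097052-64097765 (minus strand). Map2k1 had the flattest profile of the 10 in coverage per cluster, with 19 of 24 clusters at 50% of its peak of 13055 or more.

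Ncoa2, a nuclear receptor coactivator, had 23 clusters over chr1:13308081-13309095 (minus strand), and 5 of them reached 50% of the peak of 14319. Fndc3b had 21 over chr3:27384846-27386199 and Nfxl1 had 21 over chr5:72925654-72926684, both on the minus strand. In these 2 stacks 4 and 6 clusters reached 50% of the peak. In coverage per cluster, stacks thus ran from many clusters near the peak (Map2k1) to a few high ones (Fndc3b, Ncoa2, Pask). Coverage was not divided by width here, and widths differed within a stack. In the first Pask stack the peak cluster had 67 bases and coverage 17683, and a nearby cluster had 33 bases and coverage 6735. The shape per base was not described. Along the loci their medians ran from 5.96% in Map2k1 through 23.7% in Ncoa2, 50.6% in Camk1d and 53.4% in Nfxl1 to 76.1% in Fndc3b.

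**Figure D3:**
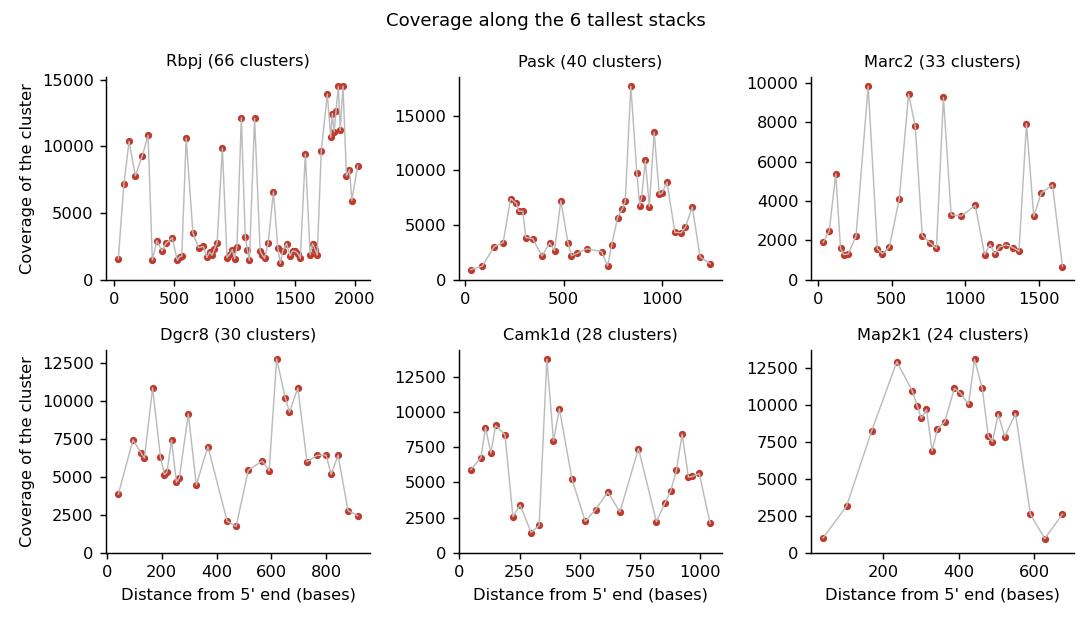
Coverage of each stacked cluster (vertical axis, linear) against the distance of its centre from the 5′ end of the region in bases (horizontal axis) for the 6 tallest stacks. Each point is 1 cluster of the tagged library. In Map2k1 19 of 24 clusters reach 50% of the peak or more, while in Rbpj and Pask 21 of 66 and 5 of 40 reach that level. Coverage is not divided by cluster width.

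The widest regions after Rbpj were of a different build, with 1 or 2 long clusters. Pcca, a subunit of propionyl-CoA carboxylase, had 2 clusters of 542 and 1516 bases over chr14:123030762-123032795 (plus strand, coverage 4600 and 11362, fold 13.69 and 14.51). Smg6, an endonuclease of nonsense-mediated decay, had 2 of 282 and 1707 bases over chr11:74900461-74902425 (plus strand, coverage 1948 and 13396). Nvl, an AAA ATPase of ribosome assembly, had 2 of 1286 and 481 bases over chr1:183031742-183033484 (minus strand, coverage 12488 and 5154). In all 3 the clusters met by 24 bases, and the longer cluster had the higher coverage. Arid1b, a chromatin remodelling subunit, had 1 stacked cluster of 1767 bases at chr17:5145768-5147534 (plus strand, coverage 12319, fold 6.12), whose partner lay above the coverage limit.

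Stacks recurred under a few gene IDs. Of the hosts 614 had 1 region and 59 had 3 or more, and the 10 gene IDs with the most stacked clusters held 548 of them (20.5%). Those IDs include Galnt2, Fgfr2 and Xkr6, with 75, 49 and 40 stacked clusters. None of these clusters lay in the locus of the named gene, as described below. Between neighbouring regions of the same host there were 440 gaps, with a median of 1800 bases, and 182 were under 1000 bases. Setting clusters aside for their coverage can cut a run into separate regions. Stack height, the number of regions and short gaps thus depend in part on the limit. Without it there were 927 regions, against 948. Smyd3, a SET and MYND domain methyltransferase, had 9 regions with 42 of its 136 clusters spread over 155970 bases. Deaf1, a transcription factor, had 6 regions with 20 of 38 clusters inside 1600 bases, and 15 further Deaf1 clusters stood at or above the coverage limit.

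Several other hosts, chosen after their values had been seen, shared this pattern. Zfp865, a zinc finger gene, had 33 of 34 clusters stacked in 3 regions within 1977 bases. Lncenc1, a long noncoding RNA abundant in ES cells, had 38 of 55 in 6 regions within 1917 bases, with low folds of 1.28 to 5.47. Uri1, which codes for a prefoldin-like protein, had 17 of 23 in 4 regions within 2018 bases, beside a cluster of coverage 202869. Xkr6 had 40 of 53 in 4 regions within 1327 bases on chromosome 14, although none of the 40 lay inside the locus of Xkr6 in the expression table and its FPKM was at most 0.13. The gene under those clusters was not identified here.

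The chromosomes differed in their share of stacked clusters. It was 14.0% on chromosome 16, 13.1% on chromosome 7 and 12.1% on chromosome 1, against 0.446% on chromosome X, where 4 of 897 clusters were stacked. On chromosome 1, 16 regions of 6 or more clusters held 248 of its 394 stacked clusters. On chromosome 16, 8 such regions held 112 of 173. On chromosome 7, 7 such regions held 73 of 278. There 60 regions had 2 gene IDs, among them the 48 with the Fgfr2 ID described below. Chromosomes 8, 15, 17, 18, X and Y had no region of 6 or more.

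Stacks with 2 gene IDs were nearly copies of each other. The overlap covered a median of 83.3% of the longer cluster, and coverage differed by a median factor of 1.05 (upper quartile 1.14). In 21 pairs coverage was equal, but no pair had identical intervals and in 196 of 235 both ends differed. Fold was finite for both in 151 pairs, infinite for both in 73 and infinite for 1 in 11. Their clusters had a median coverage of 437 and a median finite fold of 3.22, both below the 2122 and 5.71 of clusters in stacks of 1 gene ID.

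A pair of gene IDs accounted for 50% of these regions. The ID of Galnt2, an enzyme that starts O-linked glycosylation, occurred in 66 of the 228 regions, with 15 partner genes over 4136018 bases of chromosome 8 (122436281 to 126572298). The ID of Fgfr2, a fibroblast growth factor receptor, occurred in 48, with the 3 partners Ate1, Ctbp2 and Eef1akmt2. None of the 75 stacked clusters with the Galnt2 ID lay in the Galnt2 locus of the expression table (chr8:126755293-126869622), and none of the 49 with the Fgfr2 ID lay in the Fgfr2 locus (chr7:137305964-137410322). For 4 of the partners the clusters did lie in their own loci, with 29 of 29 of Ctbp2, a transcriptional corepressor, 13 of 13 of Ate1, 11 of 11 of Banp and 9 of 9 of Usp10.

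Because the rule for naming hosts went by number of regions, these IDs led that list. It ran Galnt2 with 69 regions, Fgfr2 48, Ctbp2 29, Akap2 and Pakap 15 each, Ate1 13, Banp 11, and Smyd3, Fryl and Usp10 with 9 each. Akap2 and Pakap, which overlap as genes of kinase anchoring proteins, shared all 15 of their regions and 1 row of the expression table. Fryl shared its 9 regions with an ID that had no symbol. Over all 2-ID regions there were 78 ID pairs, 46 of them with 1 region. Of 171 such regions with a locus known for both IDs, 17 lay inside both loci, 145 inside 1 and 9 inside neither. The 15 regions of Akap2 and Pakap are in this count with the shared row as the locus of both IDs. They could therefore only fall inside both or inside neither. Of the 15 Pakap clusters, 8 lay inside that locus and 7 outside it.

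Stacked clusters were set against the 32606 clusters with no partner and coverage under the same limit. There is no replicate, and clusters of a library are not replicates of each other, so these are descriptions with no test. Stacked clusters had a median coverage of 1655.5 (quartiles 544.75 and 4598.5), against 348 (223 and 705) for the others. Median width was 99 against 90 bases. The median finite fold was 5.43 against 3.44, and the fold was infinite for 21.3% (Wilson interval 19.8% to 22.9%) against 47.3% (46.8% to 47.9%).

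Much of this moved with coverage. Stacked clusters made up 2.84% of clusters with coverage under 500, 8.80% of those from 500 to under 2000 and 30.8% of those from 2000 to the limit. In the lowest range the median finite fold was 2.63 for stacked against 2.41 for other clusters, with infinite folds in 58.0% against 61.1%. In the middle range it was 4.93 against 4.69, with infinite folds in 22.9% against 27.8%. In the highest range it was 6.41 against 7.47, so stacked clusters had the higher median fold over all clusters and the lower one there. Width differed most in the highest range, at a median of 92 against 346 bases, and coverage per base of width was 45.5 against 11.3.

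**Figure D4:**
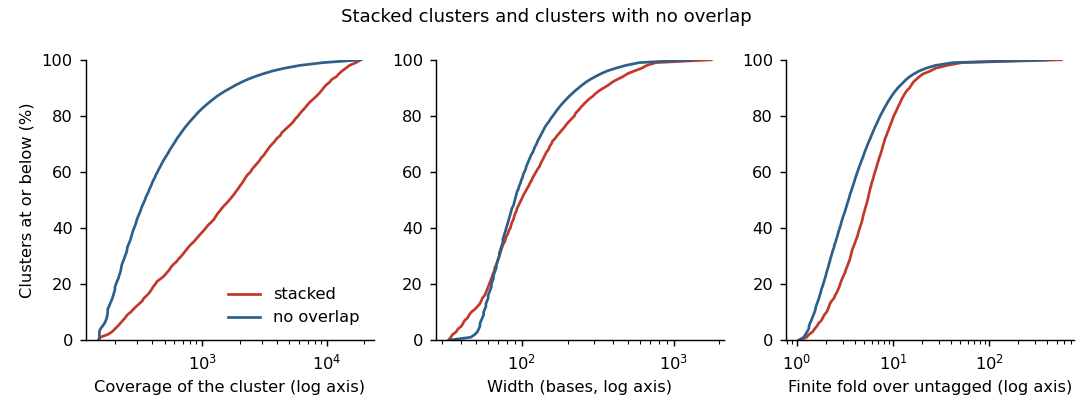
Percentage of clusters at or below each value (vertical axis) of coverage (left), width in bases (middle) and finite fold over the untagged library (right), each on a log axis, for stacked clusters (red) and clusters with no overlap under the same coverage limit (blue). The stacked curve lies to the right for coverage (median 1655.5 against 348) and fold (5.43 against 3.44), and the curves cross for width.

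Position along the host locus was counted by cluster, and clusters of the same stack lie at nearly the same place. The 839 clusters in stacks of 6 or more came from 61 regions of 40 gene IDs. Their shares thus rest on the places of few stacks, and shares by region were not computed. Of clusters inside the locus of their gene, the last 25% held 29.0% of stacked clusters, against 27.6% of other clusters. Clusters in stacks of 1 gene ID with under 6 clusters lay there in 34.7%, with 20.5% in the last 10%. Clusters in stacks of 6 or more lay there in 17.5%, with 4.37% in the last 10%. Of stacked clusters with a matched locus, 2095 of 2451 lay inside it.

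Host genes carried more clusters and were longer than other genes with clusters. The median was 6 against 2 clusters per gene ID and 64.2 against 33.3 kb of locus. The direction of the cluster count was in part set by the overlap rule. A host needs at least 2 clusters, unless the overlapping cluster carries a different gene ID, and other genes do not. Gene lists below are therefore given beside the 9.51% of cluster-bearing gene IDs that hosted a stack, and the part of length and cluster number in them was not tested.

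Among genes of RNA-binding proteins, the subject of the study, the lists ranged on both sides of that share. Of 24 hnRNP genes with a cluster 1 hosted a stack, Hnrnpa0, whose pair (chr13:58228258-58228532 and chr13:58228509-58228627, minus strand) had low folds of 1.55 and 1.10. Of 17 SR protein and SR kinase genes 1 did, the splicing factor Srsf4 (chr4:131435619-131436110 and chr4:131436087-131436206, plus strand, coverage 4470 and 657). Among other splicing regulators it was 6 of 35 (17.1%), and among mRNA regulators and nonsense-mediated decay genes 4 of 41 (9.76%). The last list held 89 stacked clusters, but 79 of them were those of Dgcr8.

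Among splicing regulators the stack of Ewsr1, an RNA-binding protein of the FET family, was the tallest. Its 9 clusters covered chr11:4990980-4991611 on the minus strand, with coverage from 648 to 8346. The 3 clusters at its 5′ end had folds of 558.75, infinite and infinite, while the other 6 lay between 3.60 and 18.67. Nova1, a neuronal splicing regulator, had 2 pairs (chr12:47810481-47811124 and chr12:47901973-47902446, minus strand), with finite folds of 13.09 and 10.04. Celf2 and Mbnl2 each had 1 pair with a highest finite fold of 7.88 and 11.96, and Fubp3 1 pair with folds of 4.93 and 1.52.

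Of 40 chromatin regulators with a cluster 7 hosted a stack (17.5%), among them the SWI/SNF subunit Arid1a (coverage 1844 and 608), Rif1, a factor of replication timing and DNA repair (738 and 965), and the remodellers Chd2 (296 and 3431) and Chd4 (311 and 5241). All 4 of those named were pairs. Folds were 6.88 and 1.81 for Arid1a, 1.38 and 2.67 for Rif1, 1.32 and 7.68 for Chd2, and 14.14 and 9.38 for Chd4. Of 41 cytoskeleton, adhesion and trafficking genes 14 did (34.1%), with 83 stacked clusters. Most of the 83 came from Enah and Epb41l5, and the others were single clusters or pairs, as in Dst, Ank2 and Ank3.

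Enah, an actin regulator of the Ena/VASP family, had 40 of 60 clusters stacked in 7 regions. A run of 9 clusters at chr1:183861932-183862199 (minus strand) had coverage from 3890 to 17450 with folds of 1.93 to 3.37. A run of 6 at chr1:183839894-183840186 had coverage from 1904 to 12656 with folds of 4.03 to 13.37. A further 10 Enah clusters stood at or above the coverage limit. Epb41l5, a FERM domain protein of cell junctions, had 20 of 26 clusters in 3 regions within 871 bases. Its run of 5 nearest the 5′ end (chr1:121493292-121493472, minus strand) rose stepwise in coverage towards the 3′ end, with values of 1075, 2397, 4517, 5517 and 14666.

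Other lists contributed little. Of 19 pluripotency genes with a cluster 1 hosted a stacked cluster, Prdm14 (chr1:13112819-13112901, coverage 377), and its partner was the cluster of coverage 19182 just above the limit. Of 6 noncoding host genes with a cluster 1 did, Mir17hg, described with its microRNA above.

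Steady-state RNA of the host genes was compared between knockdown and control hairpins. Of 720 host symbols, 673 were found in the expression table, in 668 rows, and 581 of those were expressed, at a mean FPKM of 1 or more. They stood at a median of 10.2 FPKM (quartiles 4.62 and 23.3), against 10.1 (4.56 and 22.9) for the 5902 expressed genes with unstacked clusters alone. Over all 12632 expressed genes the median was 7.81 FPKM. The median log2 fold change of hosts on the log2(FPKM + 1) scale was 0.014. It was 0.004 for the 5902 genes with unstacked clusters alone and -0.009 over all expressed genes. The log2 fold change was above 0 for 310 of 581 hosts (53.4%), against 47.6% of all. This share and the shares of called genes below were not computed for the genes with unstacked clusters alone.

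No host gene passed limma at an adjusted p under 0.05, and over all expressed genes 1 did (0.00792%). At an unadjusted p under 0.05 there were 18 hosts (3.10%), against 541 of all expressed genes (4.28%). By the second rule, that the deposited intervals of both knockdown hairpins lie outside those of both control hairpins on the same side, 3 hosts were higher (0.516%, against 0.174% of all expressed genes) and 1 was lower (0.172%, against 0.119%). These counts are small. They rested on the hairpins used. With 1 knockdown hairpin left in limma, the spread of a gene came from the control hairpins alone and held none between knockdown hairpins. Limma called 65 hosts (11.2%) without shFox2-2, against 1379 of all expressed genes (10.9%), and 18 hosts (3.10%) without shFox2-1, against 398 (3.15%). Interval separation gave 74 hosts (12.7%) without shFox2-2, of which 64 were higher and 10 lower, against 954 of all expressed genes (7.55%). Without shFox2-1 it gave 21 hosts (3.61%), of which 3 were higher and 18 lower, against 294 (2.33%). It gave 8 hosts (1.38%) without shLuc, against 106 (0.839%), and 9 (1.55%) without shGFP, against 118 (0.934%). With 1 hairpin left out, the split into higher and lower was not computed for all expressed genes.

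Rbpj, with the tallest stack, was 1 of the 3. It stood at 58.4 FPKM in shFox2-1 (interval 52.9 to 63.9) and 40.95 in shFox2-2 (36.8 to 45.1), against 33.6 in shLuc (30.8 to 36.5) and 33.5 in shGFP (30.4 to 36.5). Both knockdown values were above both controls, but the knockdown hairpins also differed from each other by more than their intervals. On the log2 scale the difference was 0.53 (standard error 0.17, limma adjusted p 0.9996), and it was 0.28 without shFox2-1 and 0.78 without shFox2-2.

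Ptpn14, a protein tyrosine phosphatase, had 43 of 61 clusters stacked in 5 regions, the largest with 15. It stood at 17.88 and 16.79 FPKM in shFox2-1 and shFox2-2, against 13.25 and 13.31 in shLuc and shGFP, with a log2 fold change of 0.36 and a standard error of 0.16. The knockdown values lay close together, as did the controls. Limk2, a kinase that phosphorylates the actin-severing protein cofilin, stood at 31.3 and 27.3 FPKM against 21.7 and 20.1 in the same order, with a log2 fold change of 0.46 and a standard error of 0.15. Its single stacked cluster (chr11:3254383-3254432, coverage 150) belonged to a 2-ID pair.

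Ptms, which codes for the small acidic protein parathymosin, was the host that was lower. It stood at 35.3 and 32.97 FPKM in shFox2-1 and shFox2-2, against 46.2 and 53.5 in shLuc and shGFP, with a log2 fold change of -0.53 and a standard error of 0.14. Its 5 clusters were all stacked, in 1 region at chr6:124863809-124864104 on the minus strand, at a median 94.1% of the locus. Coverage ran through 3015, 4337, 5649, 2087 and 4075 and folds from 1.52 to 3.15. The limma adjusted p was 0.9996 for Limk2, Ptpn14 and Ptms as well. The log2 fold change of Ptms was -0.58 without shFox2-1 and -0.48 without shFox2-2, and that of Limk2 was 0.37 and 0.56 in the same order.

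With all 4 hairpins, Dgcr8, Pask, Map2k1 and Camk1d passed neither rule. Dgcr8 stood at 29.7 and 24.5 FPKM in shFox2-1 and shFox2-2, against 21.3 and 21.7 in shLuc and shGFP (log2 fold change 0.31, standard error 0.16, and 0.18 without shFox2-1). Without shFox2-2 the Dgcr8 value was 0.45. Pask stood at 7.74 and 5.80, against 5.90 and 6.51. Map2k1 stood at 20.1 and 16.5, against 19.01 and 20.9, so for Pask and Map2k1 the groups overlapped. Camk1d was near the floor for expressed genes, at 1.21 and 0.951, against 1.09 and 0.959. Over the 33 expressed hosts of stacks of 6 or more, the median log2 fold change was 0.03. Above 0 were 20 of the 33, against 47.6% of all expressed genes. Separated intervals were seen in 2, Rbpj and Ptpn14, against 37 of 12632 expressed genes (0.293%). The boundary at 6 was chosen after the values had been seen, and 2 genes are too few to read as a trait of the class.

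**Figure D5:**
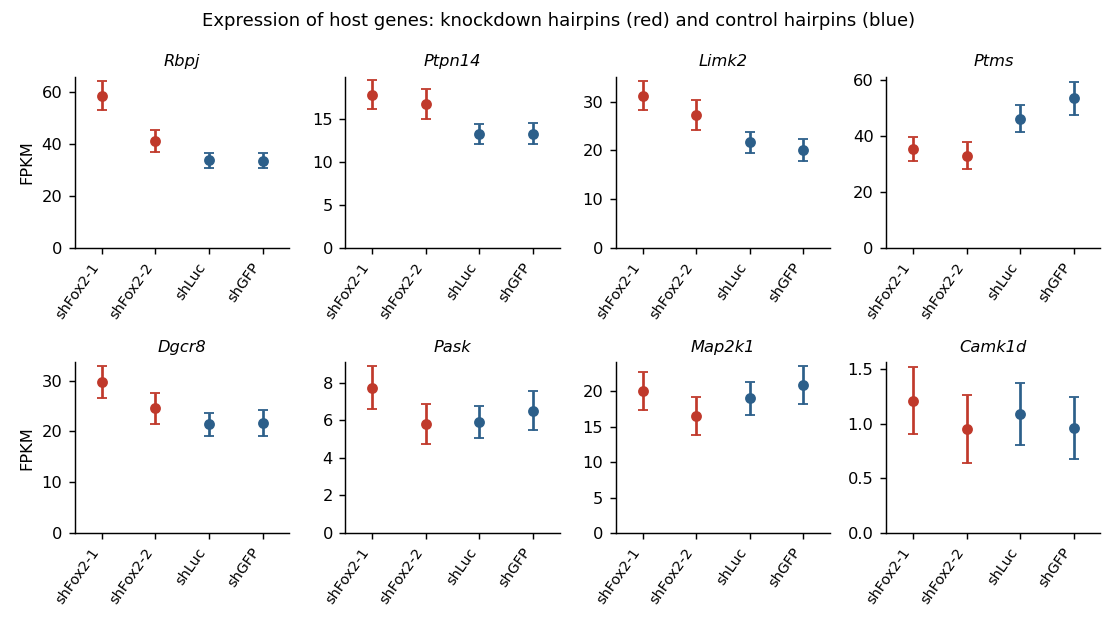
FPKM (vertical axis, linear from 0) in the knockdown hairpins shFox2-1 and shFox2-2 (red) and the control hairpins shLuc and shGFP (blue) for 8 host genes. Each point is 1 pooled value with its deposited interval. In Rbpj, Ptpn14 and Limk2 both red intervals lie above both blue ones, in Ptms below, and in the other 4 they do not separate.

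Of the listed hosts none had separated intervals. Enah, the most abundant, stood at 166 and 150 FPKM in shFox2-1 and shFox2-2, against 143 and 146 in shLuc and shGFP. Srsf4 stood at 19.01 and 17.4, against 21.5 and 24.5 (log2 fold change -0.32, standard error 0.16), with knockdown values below the controls but overlapping intervals. Ewsr1 was level, at 38.97 and 38.59 against 39.96 and 37.93. The chromatin gene Rif1 was split between the knockdown hairpins, at 48.6 in shFox2-1 and 19.5 in shFox2-2, against 36.3 and 35.0. Such a split, with 1 knockdown interval above and the other below both controls, was seen in 6 of 581 hosts and 59 of 12632 expressed genes.

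Medians by list were small, apart from that of the SR proteins and their kinases, where the single expressed host Srsf4 gave -0.32. The log2 fold change was 0.12 at the median for the 6 expressed splicing regulators with a stack (4 above 0) and 0.10 for the 4 mRNA regulators and decay genes (4 above 0). It was -0.07 for the 7 chromatin regulators (2 above 0) and -0.02 for the 12 expressed cytoskeleton genes (5 above 0), and the single expressed hnRNP and pluripotency hosts gave -0.09 and -0.01. Over all expressed genes it was -0.01.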

How the data were processed

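Clusters of the tagged iCLIP library, enriched over the untagged one, were deposited with position (mm9, per the submitters' processing notes), gene ID, coverage, fold over the untagged library, q-value and summit, per the file headers. The caller was not given in the sources used here. Expression was deposited by the authors as FPKM with a lower and an upper bound, 1 pooled value for the 2 libraries of a hairpin, per the file headers. TopHat2 2.0 and Cufflinks 2.1.1 are named in the submitters' processing notes. PCR copies may inflate coverage, so intervals cover counting error only.

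Overlap was judged among all clusters by chromosome and strand with Python 3.11.15, and overlapping stacked clusters were merged. A fold written as infinite was kept apart from finite folds. Gene IDs were named through the reference gene tables, which left 16 of the 736 host IDs without a symbol, and microRNA sequences were matched by symbol. Expression was fitted with limma 3.58.1 (R 4.3.3, trend) on log2(FPKM + 1) over the 12632 expressed genes with Benjamini-Hochberg adjustment, 2 knockdown against 2 control hairpins, so p measures the spread between hairpins, and the fold change understates that of low genes.

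The rule names the 10 regions with the most clusters, the 5 widest, the 10 hosts with the most regions, up to 5 hosts of each list, hosts called in the knockdown and clusters at the coverage limit. Members and lists were chosen with earlier results of these data known. Some hosts that this rule names are not reported here.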

Additional observations from a re-analysis of the deposited data

How the results depend on the processing

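Most counts held within 1.5 times under the alternatives tried. With an overlap of at least 50% of the shorter cluster required, 916 stacked clusters, 329 regions and 165 host IDs were left. With a fold of at least 4 required, 1783 stacked clusters were left. The share of neighbouring same-gene clusters that overlapped by 24 bases lay between 83.2% and 98.3% over all alternatives. Leaving out 2-ID regions (2209 clusters) or regions of 6 or more (1837 clusters), both chosen after seeing the data, kept the counts within 1.5 times. Limma called 0 to 65 host genes when 1 hairpin was left out (11 to 1379 of all 12632 expressed genes), and interval separation 8 to 74 (106 to 954); the lone hairpin left in its arm is assumed to vary like the other arm. With values centred on the median expressed gene, 6 hosts had separated intervals, 4 of them shared with the uncentred calls, and Sptan1 and Mybl2 were added. The balance of separated hosts, 3 higher and 1 lower with all hairpins, was 3 higher and 18 lower without shFox2-1 and 64 higher and 10 lower without shFox2-2. With 1 knockdown hairpin left out, this split was not computed for all expressed genes, so it cannot be read as a trait of hosts. Over all expressed genes the median was 0.09 above the mean of the hairpins in shFox2-1 and 0.10 below it in shFox2-2. No fold change of a host recomputed here (Ptms, Rbpj, Limk2, Ptpn14 and Dgcr8) changed sign. The cause of these moves was not tested. No paired analysis was possible because the 2 libraries of a hairpin were deposited as 1 pooled value. Depth is unknown, and with 1 tagged library no difference between clusters can be set against replicate spread.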
